A study of Mus musculus with 3 samples.

Results

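The genes described here encode the nuclear part of the mitochondrial respiratory chain, the set of protein complexes that oxidise NADH and succinate and make ATP. They were chosen by name alone, as symbols that begin with Nduf, Uqcr, Cox followed by a digit, or Atp5, together with Sdha, Sdhb, Sdhc and Sdhd. That rule gave 107 of the 17992 counted symbols, and no measured value entered it. Of these, 50 belong to complex I, 4 to complex II, 8 to complex III, 27 to complex IV and 18 to complex V. By role, 81 are structural subunits, 18 are assembly factors and 8 carry the name of a copy or pseudogene. Atp5o, Atp5if1, Atp5s, Atp5sl, Cox7b2, Cox8b and Cox8c were not analysed here, and Cyc1, the cytochrome c1 of complex III, lies outside the rule.

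Gene counts came from 3 libraries of total RNA from the brains of adult wild-type C57BL/6 mice, 1 library for each group. One group was dosed with AGNHW, short for Angong Niuhuang Wan, a remedy of traditional Chinese medicine, at 3 mg per g per day. The vehicle mice carried a middle cerebral artery occlusion, a block of a main artery of the forebrain that serves as a stroke model, and the sham mice were the controls for the surgery. Whether the AGNHW mice were occluded as well is not stated in the labels, nor are the brain region, the time after surgery and the number of mice per library. The libraries held 18184691 counts (AGNHW), 15718594 counts (vehicle) and 18286151 counts (sham). Since each group has a single library, variation among mice was not measured and no test was made, and every difference below describes these libraries with an interval for counting error only.

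Electrons enter the chain at complex I (NADH dehydrogenase) or complex II (succinate dehydrogenase), pass through complex III (the cytochrome bc1 complex) and reach oxygen at complex IV (cytochrome c oxidase). Complexes I, III and IV move protons across the inner mitochondrial membrane, and complex V (ATP synthase) uses the gradient to make ATP. All complexes but II join nuclear-encoded subunits with proteins made inside the mitochondrion from its own genome. Neurons depend on this pathway for most of their ATP, and brain tissue that loses its blood supply loses the oxygen the chain needs.

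The vehicle library stood apart in the tissue it held. Levels are given as CPM, that is counts per library brought to a common total by the TMM method, a trimmed mean over genes. The 5 pituitary hormone genes summed to 3.39 CPM in the AGNHW brain, with 1 of them at 0, 3739 CPM in the vehicle brain and 3.99 CPM in the sham brain, with 2 of them at 0. The 5 red cell genes summed to 65.1, 163.1 and 52.8 CPM and the 3 choroid plexus genes to 627.3, 934.5 and 516.7 CPM in the AGNHW, vehicle and sham brains. Neuron markers were present in all 3 libraries and summed to 5472, 5705 and 5649 CPM over 5 of 5 genes in the same order. The 4 astrocyte genes summed to 1583, 1367 and 2017 CPM, the 4 microglial genes to 143.5, 127.2 and 177.2 CPM, the 4 oligodendrocyte genes to 6247, 6579 and 5317 CPM, and the 4 endothelial genes to 161.8, 150.8 and 165.3 CPM. The part of these tissues in the respiratory differences was not tested. The ratio of AGNHW over sham is the one that does not contain the counts of the vehicle library. The scaling and the choice of genes to compare still used all 3 libraries.

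In the vehicle brain most of these transcripts were more abundant than in the sham brain. A gene was called higher or lower when its CPM differed at least 1.5-fold, its mean CPM was at least 1 and the 95% counting interval of the ratio excluded 1. Brackets after a ratio hold this interval. The mean CPM criterion kept 105 of the 107 genes and left out Ndufs5-ps and Atp5k-ps2. Of the 105, 42 were higher in the vehicle brain and 0 were lower, where 8.66% of all 15558 genes compared were higher and 14.2% were lower. The median log2 ratio was 0.51 (range -0.52 to 0.97), against 0.01 over all genes compared, and 98 of the 105 ratios were above 1. With the pituitary, red cell and mitochondrially encoded genes left out of the scaling, the number higher was 42. With plain CPM, which divides by the library total alone, 26 were higher and 1 (Ndufaf4) was lower, where 5.72% of all genes were higher and 18.2% were lower. More cells of a type and more RNA per cell cannot be told apart in bulk tissue. Summed over all 107 genes, the level was 12961 CPM in the AGNHW brain, 15516 CPM in the vehicle brain and 10910 CPM in the sham brain, which is 1.302%, 1.501% and 1.123% of all counts in that order.

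The AGNHW brain lay below the vehicle brain for most of these genes, in nearly all cases by less than the size used for a call. Between AGNHW and vehicle, 0 of 105 were higher and 1 was lower, where 4.01% of all genes were higher and 2.56% were lower. The median log2 ratio was -0.27 (range -0.91 to 0.53), against 0.002 over all genes, and 14 of the 105 ratios were above 1. Between AGNHW and sham, 2 were higher and 0 were lower, where 3.32% of all genes were higher and 5.47% were lower. That median was 0.25 (range -0.76 to 0.72), against -0.0007 over all genes, and 96 of the ratios were above 1. Each pair of these comparisons shares a library, so their directions are not independent of each other.

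**Figure D1:**
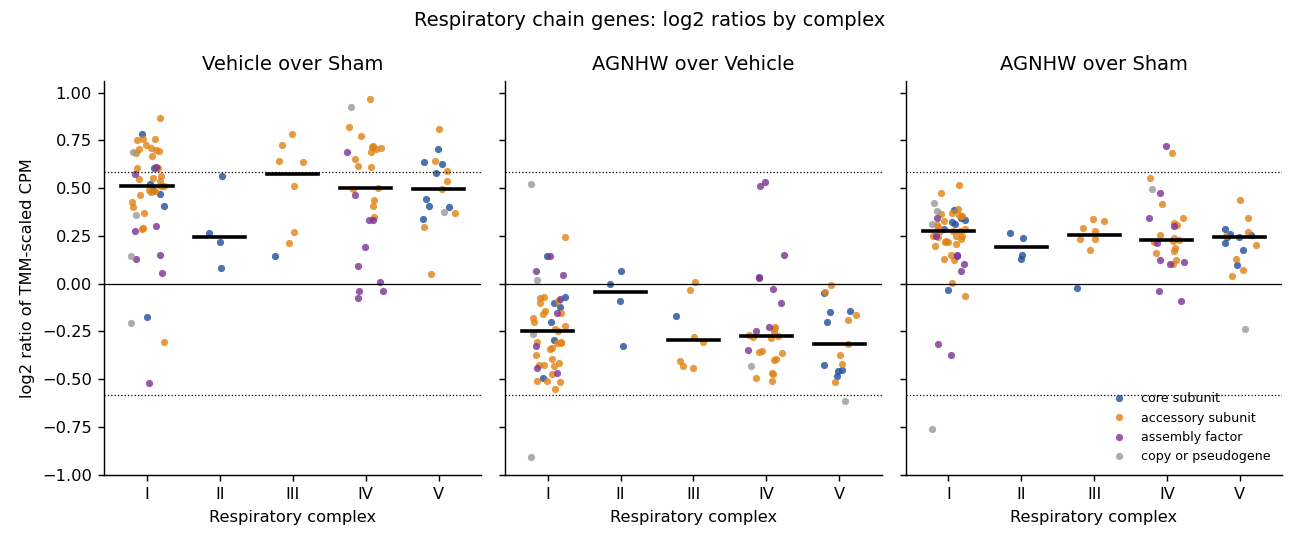
The log2 ratio of TMM-scaled CPM is plotted for each of the 105 genes compared, by respiratory complex, with 1 panel per comparison and points coloured by role. Black bars are medians per complex and dotted lines mark 1.5-fold. In vehicle over sham the medians of complexes I, III, IV and V sit between 0.49 and 0.57 and that of complex II at 0.24, while in AGNHW over vehicle all 5 medians lie below 0.

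The size of the vehicle difference went with transcript length and base composition. The respiratory genes are short: their median transcript length was 674 nt, against 2456 nt over all genes compared, and their median GC content was 52.2%, against 51.1%. Among all genes, those of the shortest of 5 equal length bands (58 to 1257 nt) had a median log2 ratio of 0.28 in vehicle over sham, and those of the longest band a median of -0.29. The 85 respiratory genes in the shortest band had a median of 0.56, and 40 of them were higher, against 20.5% of all 3088 genes in that band. Across the 105 genes the vehicle over sham log2 ratio had a Pearson correlation of 0.57 with GC content (Spearman 0.63) and of -0.40 with log10 length (Spearman -0.32), a description over genes that share the same pair of libraries. Ratios below are free of this trend only where they are said to be corrected, and the cause of the trend was not tested.

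After ratios were corrected by a smooth trend on length and GC content fitted over all genes, which explained 31.1% of the variance of log2 ratios in vehicle over sham, the median of the respiratory genes was 0.25 and 98 of 105 were above 0. By this measure 8 of 105 were higher and 1 was lower, where 5.19% of all genes were higher and 7.68% were lower. The share higher thus lay much nearer to that over all genes than before correction. The 8 were Ndufs4, Ndufb3, Ndufab1, Ndufa1, Uqcrq, Cox7b, Cox6b2 and Atp5md, and the lower one was Ndufb2, all singled out after their values were seen. Of the 8, Ndufb3, Ndufa1, Uqcrq and Cox6b2 also passed without the correction. The other genes among the 42 that were higher without the correction fell short of a call after it. In AGNHW over vehicle the corrected median was -0.14, with 1 gene higher (Cox17) and 0 lower, where 2.88% and 1.93% of all genes were higher and lower. In AGNHW over sham it was 0.13, with 1 gene higher (Cox20) and 1 lower (Ndufs6b), where 3.03% and 3.35% of all genes were higher and lower.

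**Figure D2:**
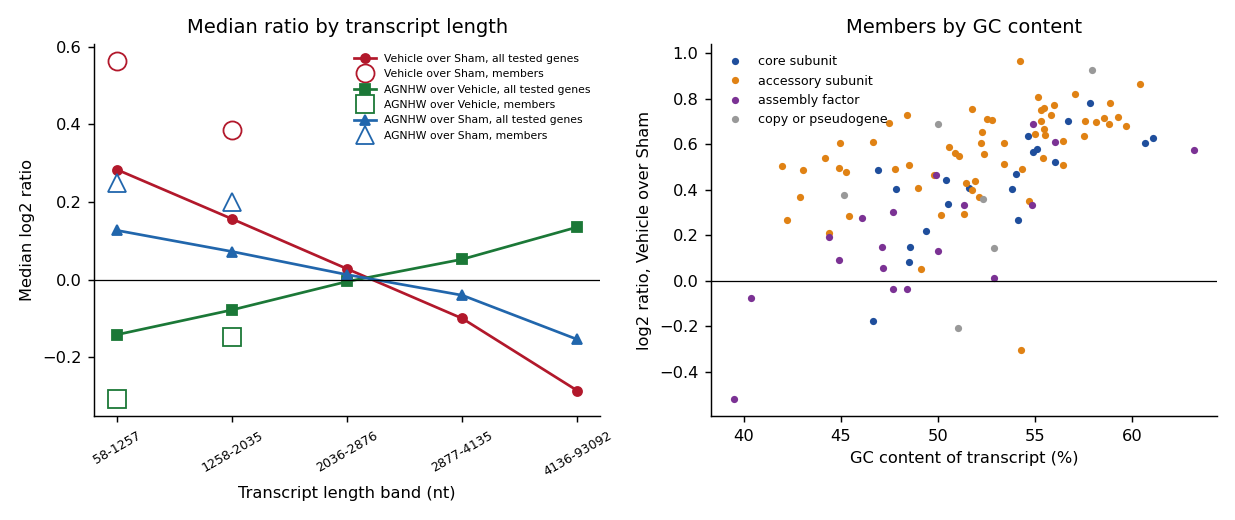
Left, the median log2 ratio of all genes compared (filled symbols with lines) in 5 bands of transcript length (nt), for the 3 comparisons, with the median of the respiratory genes (open symbols) in bands that hold at least 10 of them. Right, the vehicle over sham log2 ratio of each respiratory gene against the GC content of its transcript (%), coloured by role. In the shortest band the respiratory genes have a vehicle over sham median of 0.56 against 0.28 for all genes of the band.

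The promoters of nuclear respiratory genes are a common example of shared control, with sites for nuclear respiratory factor 1 (NRF1), the GA-binding protein GABPA and YY1. Windows from 250 bases before to 50 after the start were read from the RefSeq table of build GRCm38.p6 for 81 of the 107 genes and searched on both strands for GCGCATGC (NRF1), CCGGAAGT (GABPA) and AAGATGGC (YY1), and no window had matches of different words that overlapped. The NRF1 word was present in 14.8% of the 81 windows and in 5.24% of the windows of 12754 counted genes. The GABPA word was present in 11.1% and 7.67%, and the YY1 word in 16.0% and 4.56%, in the same order. Any of the words was present in 15 of the 33 genes (45.5%) that were higher in vehicle over sham. It was present in 17 of the 48 (35.4%) that were not, and in 16.2% of the windows of 12754 counted genes. The difference between the called and uncalled genes was not tested. The windows of the gene with the highest uncorrected vehicle over sham ratio in complexes I, III, IV and V follow. They let windows with and without these words be compared. Capitals mark the words, and each is written 5′ to 3′ on the strand of the gene.
Ndufa13 (complex I), GRCm38.p6 chr8:69901971-69902270, minus strand: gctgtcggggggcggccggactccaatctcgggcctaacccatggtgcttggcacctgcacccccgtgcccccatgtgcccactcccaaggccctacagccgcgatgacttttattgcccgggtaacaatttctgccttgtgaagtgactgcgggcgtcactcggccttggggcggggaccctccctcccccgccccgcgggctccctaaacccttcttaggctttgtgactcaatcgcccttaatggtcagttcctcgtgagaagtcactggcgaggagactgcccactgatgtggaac
Uqcr11 (complex III), GRCm38.p6 chr10:80406772-80407071, minus strand: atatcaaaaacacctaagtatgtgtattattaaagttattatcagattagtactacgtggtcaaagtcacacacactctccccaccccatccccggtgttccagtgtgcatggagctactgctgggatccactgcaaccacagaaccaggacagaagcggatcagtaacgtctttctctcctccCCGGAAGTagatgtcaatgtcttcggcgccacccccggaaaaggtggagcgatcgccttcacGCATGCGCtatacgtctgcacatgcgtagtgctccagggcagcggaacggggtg
Cox6b2 (complex IV), GRCm38.p6 chr7:4753045-4753344, minus strand: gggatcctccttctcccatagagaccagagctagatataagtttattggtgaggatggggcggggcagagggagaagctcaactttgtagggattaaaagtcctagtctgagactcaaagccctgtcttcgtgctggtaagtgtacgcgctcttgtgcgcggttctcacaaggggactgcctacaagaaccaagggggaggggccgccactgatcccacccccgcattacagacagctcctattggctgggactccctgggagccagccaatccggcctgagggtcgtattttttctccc
Atp5k (complex V), GRCm38.p6 chr5:108434350-108434649, minus strand: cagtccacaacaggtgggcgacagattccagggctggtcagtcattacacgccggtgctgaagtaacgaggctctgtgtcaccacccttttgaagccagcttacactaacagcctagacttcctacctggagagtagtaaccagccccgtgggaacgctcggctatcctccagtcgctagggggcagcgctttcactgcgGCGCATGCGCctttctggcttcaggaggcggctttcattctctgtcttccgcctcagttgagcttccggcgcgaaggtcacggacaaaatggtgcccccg
The Uqcr11 window holds a GABPA word and an NRF1 word on its other strand, and the Atp5k window holds the palindrome that reads as the NRF1 word on both strands. The Ndufa13 and Cox6b2 windows hold none of the 3 words. The window of Sdhb, the gene with the highest ratio in complex II, is not printed and holds an NRF1 word on its other strand.

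Complex I takes electrons from NADH through a flavin and a row of iron-sulphur clusters to ubiquinone. Of its 49 genes compared, 19 were higher in vehicle over sham, where 8.66% of all genes were higher. The median log2 ratio was 0.51 (0.25 corrected). After correction 4 were higher and 1 was lower, where 5.19% and 7.68% of all genes were higher and lower. Its 7 nuclear core subunits, which carry out the electron transfer, included 2 that were higher, Ndufs8 and Ndufs7, both iron-sulphur proteins near the quinone site. Ndufs8 had 76.2 CPM in the AGNHW brain, 107.6 CPM in the vehicle brain and 62.4 CPM in the sham brain. Its vehicle over sham ratio was 1.72 (1.60 to 1.86), or 1.27 corrected, short of a call. Ndufv1, which binds NADH and the flavin, had 217.9, 250.4 and 174.5 CPM in the AGNHW, vehicle and sham brains, a vehicle over sham ratio of 1.44 (1.37 to 1.504) that did not reach the size for a call. Ndufs1, the largest iron-sulphur subunit, went the other way, with 88.0 CPM in the AGNHW brain, 79.6 CPM in the vehicle brain and 90.1 CPM in the sham brain. Its vehicle over sham ratio was 0.884 (0.820 to 0.952), and with its transcript of 2590 nt the corrected ratio was 1.04.

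Accessory subunits surround this core and hold no redox centre. Of the 30 in complex I, 14 were higher in vehicle over sham, where 8.66% of all genes were higher. Their median log2 ratio was 0.56 (0.26 corrected). After correction 4 were higher and 1 was lower, where 5.19% and 7.68% of all genes were higher and lower. Ndufa13, also known as Grim19, had the highest vehicle over sham ratio of the complex before correction. It had 147.7 CPM in the AGNHW brain, 210.9 CPM in the vehicle brain and 115.7 CPM in the sham brain. Its vehicle over sham ratio was 1.82 (1.73 to 1.93). The corrected ratio was 1.36, short of a call and below the 1.71 of Ndufs4. Its AGNHW over vehicle ratio was 0.700 (0.665 to 0.737), and the AGNHW level lay between those of vehicle and sham. About 28.5% of the 50-base words of its transcript occur in another annotated gene, so its count is less certain. Per kilobase of transcript the most abundant nuclear-encoded structural subunits of the complex were Ndufa5 and Ndufb8. Ndufa5 stood at 285.1, 299.9 and 204.6 CPM per kb and Ndufb8 at 247.0, 351.3 and 208.7 CPM per kb in the AGNHW, vehicle and sham brains. Ndufb8 was higher in vehicle over sham (1.68, interval 1.60 to 1.77), and Ndufa5 was not past the size (1.47, interval 1.36 to 1.58). The intervals of both genes do not overlap in AGNHW over vehicle, where the ratio was 0.703 (0.670 to 0.738) for Ndufb8 and 0.9505 (0.885 to 1.02) for Ndufa5. Ndufb4 had the highest AGNHW over sham ratio of the complex, 1.43 (1.31 to 1.56), from 68.7 CPM in the AGNHW brain and 48.0 CPM in the sham brain. About 37.0% of its words occur in other genes.

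Among the genes singled out by the corrected ratios, Ndufs4 is an accessory subunit whose loss is the basis of a widely used mouse model of mitochondrial disease. It had 56.4, 66.6 and 47.5 CPM in the AGNHW, vehicle and sham brains, a vehicle over sham ratio of 1.40 (1.28 to 1.54) and a corrected ratio of 1.71. Ndufb3 had 79.3, 94.2 and 61.9 CPM in the same order, a vehicle over sham ratio of 1.52 (1.41 to 1.65) and a corrected ratio of 1.60. Ndufab1 is the mitochondrial acyl carrier protein, which also serves fatty acid synthesis, and Ndufa1 is a small membrane subunit. Their corrected ratios were 1.55 and 1.53, and 31.2% of the words of Ndufab1 occur in other genes. Ndufb2 was the only structural subunit besides Ndufs1 with a vehicle over sham ratio below 1. It had 221 counts in the AGNHW brain, 155 counts in the vehicle brain and 238 counts in the sham brain, a vehicle over sham ratio of 0.806 (0.654 to 0.991) and a corrected ratio of 0.605, and 33.5% of its words occur in another gene.

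The 8 complex I assembly factors, which help build the complex and are not part of it, had a median log2 ratio of 0.21 in vehicle over sham. Ndufaf3 and Ndufaf8 were higher and 0 were lower, where 8.66% and 14.2% of all genes were higher and lower. After correction 0 were higher and 0 were lower. Ndufaf3 had 35.1 CPM in the AGNHW brain, 48.6 CPM in the vehicle brain and 31.8 CPM in the sham brain, a vehicle over sham ratio of 1.53 (1.37 to 1.71). Ndufaf4 had the lowest ratio of all 105 genes, from 16.5 CPM in the AGNHW brain, 14.9 CPM in the vehicle brain and 21.5 CPM in the sham brain. That ratio was 0.692 (0.585 to 0.816), short of a call. Its transcript, of 3632 nt with a GC content of 39.5%, is the least GC-rich of the set, and the corrected ratio was 1.04. Of the 5 genes named as copies, Ndufs6b was the single lower call in AGNHW over vehicle. It rests on 11 counts in the AGNHW brain, 21 in the vehicle brain and 23 in the sham brain, an AGNHW over vehicle ratio of 0.436 (0.190 to 0.946). About 25.4% of its words occur in another gene. Ndufb4c had 35, 19 and 28 counts in the AGNHW, vehicle and sham brains, and all of its words occur in another gene.

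Complex II oxidises succinate in the tricarboxylic acid cycle and is the one complex with no mitochondrially encoded subunit. The median log2 ratio of its 4 genes in vehicle over sham was 0.24 (0.19 corrected). None of the 4 reached the size for a call in any comparison. Over all genes, 8.66% were higher and 14.2% lower in vehicle over sham. The shares were 4.01% and 2.56% in AGNHW over vehicle, and 3.32% and 5.47% in AGNHW over sham. With 4 genes, 0 calls cannot be told apart from these shares. Sdhb, the iron-sulphur subunit, came closest, with 151.0 CPM in the AGNHW brain, 189.1 CPM in the vehicle brain and 127.8 CPM in the sham brain and a vehicle over sham ratio of 1.48 (1.40 to 1.56). Sdha, the flavoprotein that oxidises succinate, had 436.6, 417.0 and 394.0 CPM in the same order and a ratio of 1.06 (1.02 to 1.09). The intervals of Sdhb and Sdha do not overlap, so the transcripts of these partner subunits differed between the vehicle and sham libraries by unequal amounts, with corrected ratios of 1.17 and 1.19. The membrane anchors Sdhc and Sdhd had vehicle over sham ratios of 1.203 (1.12 to 1.29) and 1.17 (1.08 to 1.26). In AGNHW over vehicle the ratio was 0.798 (0.757 to 0.841) for Sdhb, 0.9999 (0.936 to 1.07) for Sdhc, 0.938 (0.866 to 1.02) for Sdhd and 1.05 (1.01 to 1.08) for Sdha.

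Complex III passes electrons from ubiquinol to cytochrome c. Of its 8 genes, Uqcr11, Uqcrq, Uqcr10 and Uqcrc1 were higher in vehicle over sham, where 8.66% of all genes were higher. The median log2 ratio was 0.57 (0.33 corrected). After correction 1 was higher (Uqcrq), where 5.19% of all genes were higher. Uqcrfs1, the Rieske iron-sulphur protein and the only catalytic subunit among the 8, had 83.5 CPM in the AGNHW brain, 93.8 CPM in the vehicle brain and 84.7 CPM in the sham brain. Its vehicle over sham ratio of 1.11 (1.03 to 1.19) was the lowest of the complex. Uqcrc1 and Uqcrc2 form the large matrix-facing part of the complex. Uqcrc1 had 299.7, 370.9 and 238.6 CPM in the AGNHW, vehicle and sham brains, a vehicle over sham ratio of 1.55 (1.49 to 1.62). Uqcrc2 had 167.3, 171.1 and 147.8 CPM in the same order, a ratio of 1.16 (1.10 to 1.22), and 24.8% of its words occur in another gene. These partners differ in GC content, 57.5% for Uqcrc1 and 44.4% for Uqcrc2, and their order turned in the corrected ratios, 1.22 for Uqcrc1 and 1.38 for Uqcrc2.

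The small subunits of complex III have short transcripts, such as the 402 nt of Uqcrh and the 535 nt of Uqcrb. Uqcr11 had 86.5 CPM in the AGNHW brain, 117.6 CPM in the vehicle brain and 68.3 CPM in the sham brain. Its vehicle over sham ratio was 1.72 (1.60 to 1.85), or 1.19 corrected, short of a call. Its AGNHW over vehicle ratio was 0.735 (0.687 to 0.787). Uqcrq had 139.7, 188.8 and 113.9 CPM in the same order, a vehicle over sham ratio of 1.66 (1.57 to 1.75) and a corrected ratio of 1.52. Uqcrh, the hinge protein that contacts cytochrome c1, and Uqcrq had the highest levels per length among the nuclear-encoded subunits of the complex counted here. Uqcrh stood at 301.8, 366.2 and 257.0 CPM per kb and Uqcrq at 277.2, 374.5 and 226.1 CPM per kb in the AGNHW, vehicle and sham brains. Uqcrb, a small subunit on the matrix side, had an AGNHW over vehicle ratio of 1.01 (0.929 to 1.09), the highest of the complex, and 43.4% of its words occur in another gene. Outside the rule, Cyc1 had 208.1 CPM in the AGNHW brain, 265.9 CPM in the vehicle brain and 182.1 CPM in the sham brain, a vehicle over sham ratio of 1.46 (95% counting interval 1.39 to 1.53). Cycs, the mobile carrier cytochrome c, had 97.3, 94.2 and 92.2 CPM in the same order.

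**Figure D3:**
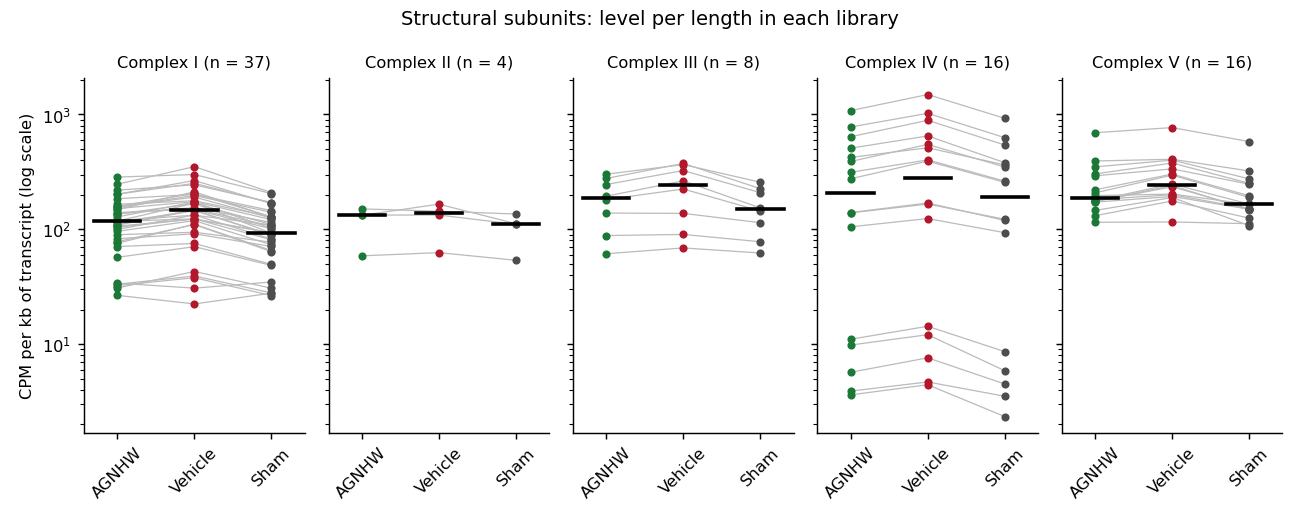
CPM per kb of transcript (log scale) is plotted for each of the 81 structural subunits in the AGNHW, vehicle and sham libraries, with 1 panel per complex, a grey line joining the values of a gene and a black bar at the median. The vehicle points are the highest for most genes, and 5 subunits of complex IV lie far below the rest.

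Complex IV reduces oxygen to water. Its catalytic subunits are encoded in the mitochondrion, and the nuclear subunits stabilise the complex and tune it. Of its 16 structural subunits counted here, 11 were higher in vehicle over sham, where 8.66% of all genes were higher. By the corrected ratios 2 were higher, where 5.19% of all genes were higher. The median log2 ratio of the 16 was 0.67. This was the highest median among the structural subunits of the 5 complexes before correction. After correction it was 0.30, below the 0.33 of complex III. All 16 vehicle over sham ratios were above 1. In AGNHW over vehicle, a comparison that shares the vehicle library, the median of the 16 was -0.36. Cox5b, a zinc-binding subunit, had 317.8 CPM in the AGNHW brain, 406.2 CPM in the vehicle brain and 237.7 CPM in the sham brain, a vehicle over sham ratio of 1.71 (1.64 to 1.78). Cox5a had 67.8, 80.02 and 60.3 CPM in the same order and a ratio of 1.33 (1.22 to 1.44), short of a call. About 30.6% of the words of Cox5b and 32.0% of those of Cox5a occur in other genes, and Cox5b-ps, a copy of Cox5b, had 508 counts in the AGNHW brain, 572 in the vehicle brain and 370 in the sham brain, with a vehicle over sham ratio of 1.91 (1.68 to 2.19). Reads of Cox5b and its copy cannot be told apart with certainty. Cox7c had the lowest AGNHW over vehicle ratio of the complex, 0.702 (0.667 to 0.739), and its vehicle over sham ratio was 1.53 (1.45 to 1.61). About 53.0% of its words occur in other genes.

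Several complex IV subunits exist as a general form and a form known from another tissue or state. The general forms were by far the more abundant in each pair, and the rarer forms lie near the lower end of what was counted. Cox4i1 stood at 777.5, 1023 and 627.9 CPM per kb in the AGNHW, vehicle and sham brains, where Cox4i2, the form known from lung and low oxygen, stood at 3.62, 4.43 and 2.34 CPM per kb. Both were higher in vehicle over sham, Cox4i1 with a ratio of 1.63 (1.58 to 1.68) and Cox4i2, from 48 counts in the AGNHW brain, 49 in the vehicle brain and 32 in the sham brain, with a ratio of 1.89 (1.19 to 3.06). These intervals overlap. Cox6a1 had the highest level per length among the nuclear-encoded subunits, 1080, 1491 and 925.4 CPM per kb in the same order, and its vehicle over sham ratio was 1.61 (1.57 to 1.65). Cox6a2, the heart and muscle form, stood at 11.0, 14.3 and 8.60 CPM per kb with a vehicle over sham ratio of 1.66 (1.29 to 2.15). The corrected ratios of Cox6a1 and Cox6a2 were 1.13 and 1.33, both short of a call.

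Cox6b2, the testis form of subunit 6B, had the highest vehicle over sham ratio of the 105 genes, from 78 counts in the AGNHW brain, 80 in the vehicle brain and 48 in the sham brain. The vehicle over sham ratio was 2.06 (1.42 to 3.01), or 1.55 corrected. The AGNHW over sham ratio of 1.67 (1.15 to 2.45) made it 1 of the 2 genes higher in that comparison. The general form Cox6b1 had 137.9 CPM in the AGNHW brain, 194.1 CPM in the vehicle brain and 123.4 CPM in the sham brain, a vehicle over sham ratio of 1.57 (1.49 to 1.66) that lies within the interval of Cox6b2. Cox7a2, the general form of 7A, had 91.7, 109.3 and 80.6 CPM in the same order and a vehicle over sham ratio of 1.36 (1.26 to 1.45). Cox7a1, its heart and muscle form, had 28, 28 and 26 counts and a ratio of 1.33 (0.753 to 2.37), so a difference of its size was not detectable at this depth. Cox8a had 351.8 CPM in the AGNHW brain, 489.3 CPM in the vehicle brain and 298.0 CPM in the sham brain. Its vehicle over sham ratio was 1.64 (1.59 to 1.70), or 1.15 corrected, short of a call. Ndufa4, named for complex I and since placed in complex IV, had 190.9, 231.9 and 164.4 CPM in the same order and a ratio of 1.41 (1.34 to 1.48). Its paralogue Ndufa4l2, known to be induced by hypoxia, had 97, 108 and 79 counts and was higher in vehicle over sham. The ratio of Ndufa4l2 was 1.69 (1.254 to 2.29), an interval that holds that of Ndufa4. Its corrected ratio was 1.22, short of a call. Markers of striated muscle, the usual source of Cox6a2 and Cox7a1, summed to 31.2 CPM in the AGNHW brain, 34.7 CPM in the vehicle brain and 29.5 CPM in the sham brain over the 5 of 6 that were counted; their part in these forms was not tested.

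The 10 genes counted as complex IV assembly factors insert haem and copper, place the mitochondrially made subunits or join complexes to each other. Their median log2 ratio in vehicle over sham was 0.14 (0.19 corrected). Cox14, which acts early on the first catalytic subunit, was the only one past the size. That is 10% of the 10, close to the 8.66% of all genes that were higher, and after correction 0 were higher. Cox14 had 86.2 CPM in the AGNHW brain, 109.7 CPM in the vehicle brain and 68.0 CPM in the sham brain, a vehicle over sham ratio of 1.61 (1.499 to 1.74). Cox11, which delivers copper, had the lowest ratio of the complex, 0.948 (0.780 to 1.15), from 12.8, 12.5 and 13.2 CPM in the AGNHW, vehicle and sham brains. About 44.6% of its words occur in other genes. Cox18, which inserts a catalytic subunit into the membrane, had an AGNHW over sham ratio of 0.937 (0.780 to 1.12). Cox20, a partner in the same step, had 37 counts in the AGNHW brain, 20 in the vehicle brain and 21 in the sham brain. It was the other gene higher in AGNHW over sham (1.82, interval 1.04 to 3.26), its AGNHW over vehicle ratio was 1.54 (0.871 to 2.80), and 68.2% of its words occur in another gene. Cox17, the copper chaperone, had 122, 70 and 89 counts in the AGNHW, vehicle and sham brains and an AGNHW over vehicle ratio of 1.45 (1.07 to 1.98), and 52.7% of its words are shared.

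**Figure D4:**
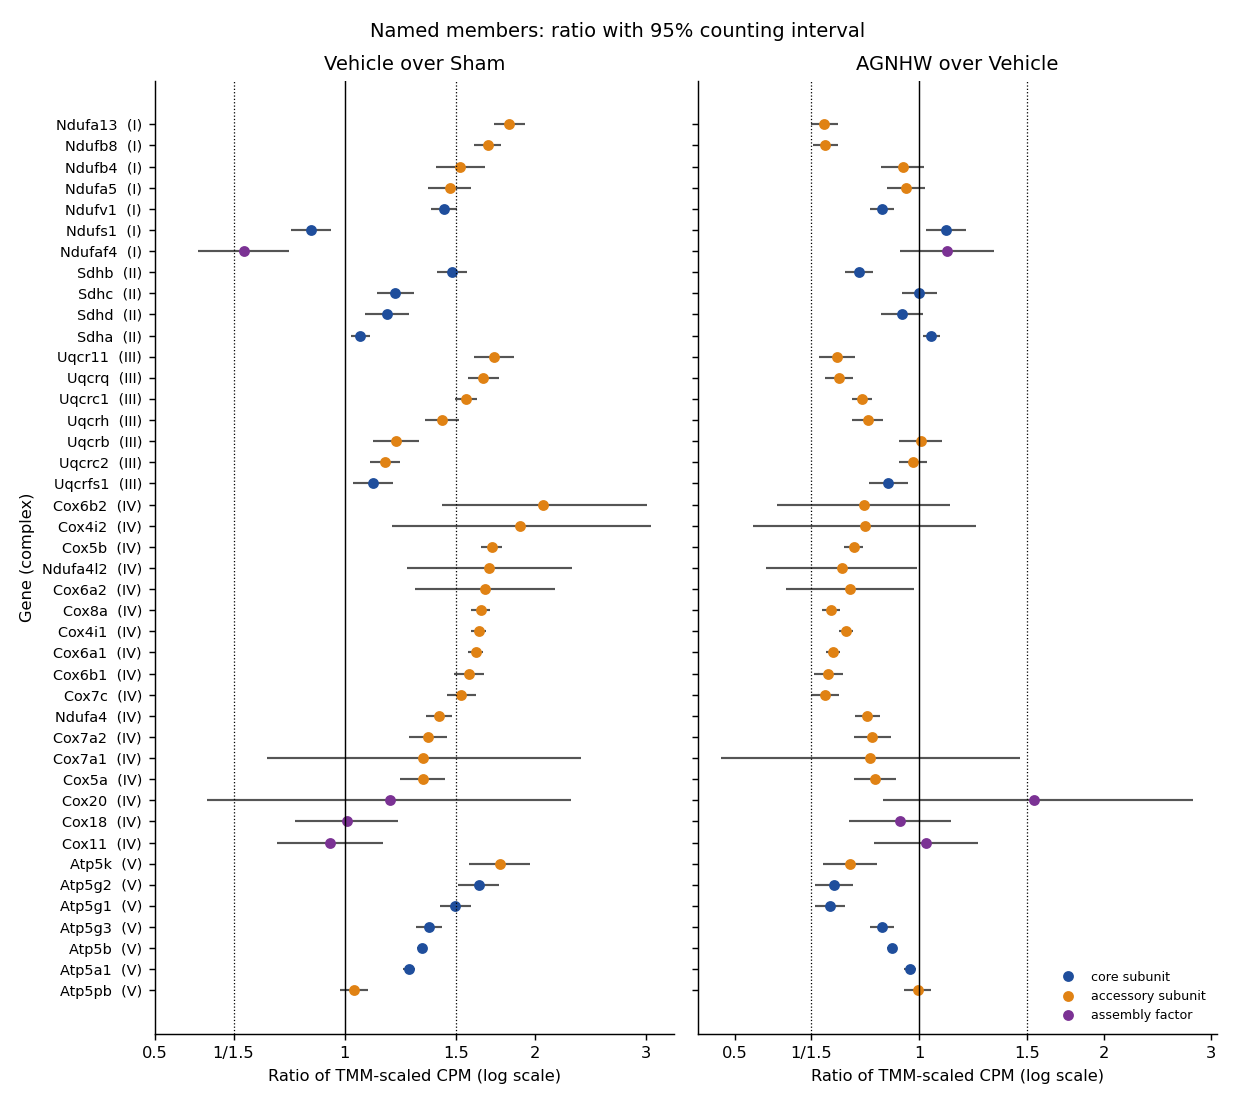
Vehicle over sham (left) and AGNHW over vehicle (right) ratios of TMM-scaled CPM (log scale) with their 95% counting intervals are plotted for the genes given with values by rule, copies left out, grouped by complex and coloured by role. Dotted lines mark 1.5-fold either way. Wide intervals mark the rare forms Cox4i2, Cox6b2, Cox7a1 and Ndufa4l2 and the assembly factor Cox20, and Ndufs1 and Ndufaf4 are the points with vehicle over sham intervals below 1.

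Complex V turns the proton gradient into ATP with a rotor, a catalytic head and a fixed outer stalk. Of its 17 genes compared, 6 were higher in vehicle over sham, where 8.66% of all genes were higher. The median log2 ratio was 0.49 (0.31 corrected). After correction 1 was higher (Atp5md), where 5.19% of all genes were higher. All 17 ratios were above 1. The head subunits Atp5a1 (alpha) and Atp5b (beta, which makes ATP) had the highest levels per length among the nuclear-encoded subunits of the complex. Atp5b had 1329 CPM in the AGNHW brain, 1473 CPM in the vehicle brain and 1112 CPM in the sham brain, a vehicle over sham ratio of 1.33 (1.30 to 1.35). Atp5a1 had 972.1, 1007 and 795.9 CPM in the same order and a ratio of 1.26 (1.24 to 1.29). Both lie below the size for a call, and their intervals, narrow at this depth, exclude 1.5. The central stalk subunits Atp5d and Atp5e were higher, with vehicle over sham ratios of 1.55 (1.48 to 1.62) and 1.56 (1.44 to 1.68). Their corrected ratios were 1.12 and 1.16, short of a call.

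The c ring, the membrane part of the rotor, is built of a single protein encoded by Atp5g1, Atp5g2 and Atp5g3, which differ mainly in the leader that is cut off. Atp5g3 was the most abundant per length, at 292.3, 335.8 and 246.9 CPM per kb in the AGNHW, vehicle and sham brains. Atp5g1 stood at 177.3, 248.1 and 165.8 CPM per kb and Atp5g2 at 174.6, 240.3 and 147.4 CPM per kb. In vehicle over sham the ratio was 1.63 (1.51 to 1.76) for Atp5g2, a call, 1.497 (1.41 to 1.59) for Atp5g1 and 1.36 (1.30 to 1.43) for Atp5g3. All words of Atp5g2 and 56.2% of those of Atp5g1 occur in other genes, so the split among these genes is uncertain, while Atp5g3 shares none. Their AGNHW over vehicle ratios were 0.726 (0.676 to 0.781) for Atp5g2, 0.715 (0.675 to 0.756) for Atp5g1 and 0.870 (0.831 to 0.911) for Atp5g3.

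Among the outer stalk and membrane subunits, Atp5k, Atp5j2 and Atp5h were higher in vehicle over sham, and 50.5% of the words of Atp5h are shared. Atp5k, subunit e, which helps pair the synthase into dimers, had the highest ratio of the complex, from 39.7 CPM in the AGNHW brain, 51.5 CPM in the vehicle brain and 29.3 CPM in the sham brain. Its vehicle over sham ratio was 1.76 (1.57 to 1.96). The corrected ratio was 1.27, short of a call and below that of Atp5md. Its AGNHW over sham ratio was 1.36 (1.21 to 1.52). Atp5pb, subunit b of the outer stalk, had the lowest ratio, 1.03 (0.984 to 1.09), with 184.7, 185.8 and 179.6 CPM in the AGNHW, vehicle and sham brains. Its AGNHW over vehicle ratio was 0.994 (0.946 to 1.05), and 38.7% of its words are shared. Atp5md, the small subunit DAPIT, had a vehicle over sham ratio of 1.45 (1.37 to 1.55) and a corrected ratio of 1.51, and 40.6% of its words are shared. Atp5pb-ps, a copy of Atp5pb, had 28, 38 and 35 counts in the AGNHW, vehicle and sham brains. Its AGNHW over vehicle ratio was 0.614 (0.363 to 1.03), an interval that reaches past 1, and 55.7% of its words are shared.

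Across complexes, 32 of 61 accessory subunits were higher in vehicle over sham (median log2 ratio 0.60), 5 of 20 core subunits (0.46) and 3 of 18 assembly factors (0.17), where 8.66% of all genes were higher. The difference between these classes was not tested. After correction 8, 0 and 0 were higher in that order, where 5.19% of all genes were higher. The corrected medians were 0.28, 0.21 and 0.19, and assembly factors had a median transcript length of 1079 nt against 659 nt for structural subunits. Medians in AGNHW over vehicle were -0.31 for accessory subunits, -0.16 for core subunits and -0.06 for assembly factors. In all, 30 of the 105 genes share at least 20% of their words with another annotated gene. Without them and the copies, 33 of 75 were higher in vehicle over sham and the median was 0.51.

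Other large sets of housekeeping genes had medians on the same side in vehicle over sham. Cytosolic ribosomal proteins had 44 of 78 higher and 0 lower in vehicle over sham, with a median log2 ratio of 0.62 (0.35 corrected). The shares over all genes were 8.66% higher and 14.2% lower. Mitochondrial ribosomal proteins had 15 of 77 higher, 0 lower and a median of 0.37 (0.24 corrected). Proteasome subunits had 5 of 37 (13.5%) higher, before correction closer to the share over all genes, 0 lower and a median of 0.33 (0.24 corrected). After correction 13 of 78 cytosolic ribosomal, 6 of 77 mitochondrial ribosomal and 4 of 37 proteasome genes were higher, beside 8 of 105 respiratory genes. Lower were 0, 0, 1 and 1 in that order, where 5.19% and 7.68% of all genes were higher and lower. The respiratory median of 0.51 (0.25 corrected) lies within the range of these sets, and no difference between the sets was tested. Medians in AGNHW over vehicle were -0.28 for cytosolic ribosomal, -0.17 for mitochondrial ribosomal and -0.14 for proteasome genes. In AGNHW over sham they were 0.34, 0.18 and 0.14 in that order.

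Within the wider pathway, the 13 proteins encoded in the mitochondrial genome had a smaller median ratio in vehicle over sham before correction. They summed to 47649 CPM in the AGNHW brain, 48712 CPM in the vehicle brain and 50438 CPM in the sham brain. In vehicle over sham 0 were higher and 1 was lower, with a median log2 ratio of 0.13 (0.40 corrected). These log2 ratios ranged from -0.98 to 0.50 before correction. After correction 2 were higher and 1 was lower, where 5.19% and 7.68% of all genes were higher and lower. The counts that follow are to be read against 8.66% higher and 14.2% lower over all genes. Assembly factors outside the name rule had 6 of 31 higher and 0 lower in vehicle over sham (median 0.16), coenzyme Q synthesis genes 2 of 11 higher and 0 lower (0.44), and tricarboxylic acid cycle genes 1 of 16 (6.25%) higher and 1 lower (0.18). Regulators of respiratory genes had 0 of 15 higher and 4 (26.7%) lower (-0.15). After correction 2 were lower, where 7.68% of all genes were lower. Ppargc1a, the coactivator that drives mitochondrial biogenesis, was 1 of the 4 lower before correction. It had 21.1 CPM in the AGNHW brain, 18.2 CPM in the vehicle brain and 28.0 CPM in the sham brain. Its vehicle over sham ratio was 0.652 (95% counting interval 0.561 to 0.755). Its corrected log2 ratio of -0.44 fell short of a call. Tfam, which packages and transcribes mitochondrial DNA, had 26.9, 25.8 and 26.8 CPM in the AGNHW, vehicle and sham brains. Nrf1, the gene of NRF1, had 20.4, 19.0 and 17.7 CPM in the same order, with a vehicle over sham ratio of 1.07 (95% counting interval 0.911 to 1.26). Gabpa had 8.38, 4.60 and 10.6 CPM in that order, the lowest vehicle over sham log2 ratio of the 15 regulators (-1.16). Yy1 had 82.9, 77.9 and 86.6 CPM. The part of these factors in the respiratory differences was not tested.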

How the data were processed

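Total RNA from brain, per the labels, was sequenced on an Illumina HiSeq instrument, per the series' design text, and the authors deposited read counts per gene symbol, 1 table for each of the 3 libraries, grouped here by title. Bowtie2 2.2.3, TopHat2 2.0.12, HTSeq 0.6.0 and the build mm9 are named in the submitters' processing notes. The strand setting of the counting is not stated, so reads of genes that overlap on opposite strands cannot be separated. Library totals were 18184691 (AGNHW), 15718594 (vehicle) and 18286151 counts (sham). Every counted gene had at least 21 counts in all, so rarer genes are absent from the tables.

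Counts were scaled with TMM factors (edgeR 4.0.16, R 4.3.3) and compared gene by gene over 15558 genes with a mean CPM of at least 1. Ratios have 95% Clopper-Pearson intervals on the share of the pair of counts; since the reads carry no molecular identifiers, these cover counting error only and may be too narrow. Log2 ratios used a prior count of 5. Transcript length, GC content and shared 50-base words came from GENCODE M21 basic transcripts, with 105 of the 105 respiratory genes compared matched by current or older symbol. The correction was a smooth fit (mgcv 1.9.3) on log10 length and GC content over 15407 genes. The size rule was tried on simulated counts with counting error only, without variation among mice and without a length or GC trend. Over the 3 comparisons it recovered 98 to 99% of genes set 2-fold higher and 88 to 92% of those set 2-fold lower. Of 15558 genes, 102 to 119 left unchanged passed it. How the rule behaves under that variation or trend was not tested. The gene set, the roles, the comparison lists and the rule for named genes were chosen with earlier results of these data known. By that rule, values are given for the 2 most abundant structural subunits per complex by level per length, the highest and lowest ratio per complex and comparison, the largest calls, the main catalytic subunits and the tissue forms. Genes named beyond it were chosen after their values were seen. The alternatives are in the closing section, and the one on shared words and copies was added after seeing the data. Intervals were computed with scipy 1.17.1 in Python 3.11.15 and figures drawn with matplotlib 3.10.9, and DESeq2 1.42.0 gave 1 alternative scaling.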

Additional observations from a re-analysis of the deposited data

How the results depend on the processing

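No paired analysis was possible because each group has 1 library, and for the same reason no library could be left out in turn. In vehicle over sham the number of respiratory genes higher was 42 with TMM scaling. It was 42 with DESeq2 size factors, 45 with upper-quartile scaling, 42 with the pituitary, red cell and mitochondrially encoded genes left out of the scaling, 42 with no filter and 38 at a mean CPM of at least 10. It was 37 for structural subunits only and 33 without shared words and copies. With plain CPM it was 26 higher and 1 lower. With the length and GC correction it was 8 higher and 1 lower, and the median log2 ratio was 0.25. With a threshold of 25% higher, or its inverse, in place of 1.5-fold it was 76 higher and 1 lower, where 21.7% and 24.1% of all genes were higher and lower, and at 2-fold 1 was higher (1.97% of all genes).

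In AGNHW over vehicle, where 0 were higher and 1 was lower, plain CPM gave 1 higher, and the length and GC correction 1 higher, 0 lower and a median of -0.14. At the 25% threshold 1 was higher and 40 were lower, where 11.1% and 8.45% of all genes were higher and lower. The 1 lower gene, Ndufs6b, was lost (0 lower) at a mean CPM of at least 10, among structural subunits only and without shared words and copies. In AGNHW over sham, where 2 were higher and 0 were lower, 0 were higher at a mean CPM of at least 10 and at 2-fold. There was 1 higher among structural subunits only and 1 without shared words and copies. After the correction there were 1 higher and 1 lower, and the median was 0.13, and the 25% threshold gave 24 higher and 1 lower (9.9% and 14.6% of all genes). Plain CPM moved the split over all genes to 890 higher and 2836 lower in vehicle over sham (1348 and 2207 with TMM), to 808 and 309 in AGNHW over vehicle (624 and 398) and to 460 and 999 in AGNHW over sham (517 and 851). The causes of these changes were not tested. No median of the respiratory genes changed sign under any alternative. Genes with under 100 counts, such as Cox6b2, Cox4i2, Cox7a1, Cox20 and Ndufs6b, are limited by depth.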
